A study of Mus musculus with 6 samples.

Results

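Trefoil and gastric-type epithelial genes were followed in organoids of pancreatic tumours from KPC mice. The group was a fixed list of 8 genes, matched by symbol in the deposited normalized table: Tff1, Tff2, Tff3, Agr2, Ctse, Anxa10, Vsig1 and Gkn1. All 8 were found among 53379 annotated genes, and all 8 passed the filter on low counts, which kept 14537 genes. Organoids are epithelial cultures grown in a gel of basement membrane proteins. All mice carried Pdx1-Cre on a C57/Bl6 background, so Cre was expressed under the Pdx1 promoter in every group. The 3 heterozygous libraries had the genotype Trp53LSLR172H/+, with 1 wild-type Trp53 allele. The 3 LOH libraries had the genotype Trp53LSLR172H/- and were titled as having undergone loss of heterozygosity. Organoid lines 6, 23 and 34 each gave 1 library of either genotype, so a line has no replicate within a genotype. Ages were not given in the labels. The word "Nut" closes the descriptions of LOH samples and is not explained in the labels, and anything it stands for cannot be told apart from genotype.

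Trefoil factors are small secreted proteins held in a compact loop by disulfide bonds, and mucous epithelia release them together with mucins. In the normal stomach Tff1 marks surface pit cells and Tff2 marks mucous neck cells, while Tff3 is made mainly by intestinal goblet cells. Gkn1 is a secreted gastrokine of pit cells, Ctse an aspartic protease of gastric epithelium, Anxa10 an annexin found in gastric mucosa and Vsig1 an adhesion protein of the stomach's glandular epithelium. Agr2 is a protein disulfide isomerase of the endoplasmic reticulum that mucin-producing cells need. Early pancreatic neoplasia in mice and humans is known to switch on genes of this gastric kind.

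A library held between 13680458 and 27917277 expected counts and the totals of the groups overlapped. CPM, counts scaled to a common TMM-adjusted library size, were used to compare libraries. TPM, which also divides by transcript length, was used to compare genes within a library. Trp53 itself lay between 76.3 and 86.5 CPM in heterozygous and between 47.4 and 73.5 CPM in LOH libraries (log2 fold change -0.47, edgeR adjusted p 0.227), and gene counts do not separate its alleles. The epithelial label held, with the summed TPM of 9 ductal and general epithelial markers between 2793 and 5864. All 7 fibroblast and all 4 endothelial markers failed the filter, with sums of at most 0.29 and 0.61 TPM. The 10 acinar markers summed to 0.73 to 2.81 TPM and the 8 endocrine markers to at most 0.11 TPM. Of 7 leukocyte markers only Cd68, a lysosomal protein that epithelial cells can also make, passed it. The leukocyte sum ran from 1.76 to 2.25 TPM in heterozygous and from 2.67 to 10.8 TPM in LOH libraries, while Ptprc, the pan-leukocyte antigen, stayed at 0 to 7 counts. Whether these low levels touched the gastric-type genes was not tested.

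Promoter sequences are shown for Vsig1, Anxa10, Gkn1 and Agr2, the members that were higher in the LOH library of each of the 3 lines and that had an entry in the RefSeq table. Each run is the 250 bases before the RefSeq start on GRCm38.p6, 5′ to 3′ on the gene's strand. Capitals mark matches on either strand. The letters TGTTTAC and also TATTTAC were searched as forkhead motifs, AGATAA as the motif of GATA factors, TATAAA as the core promoter box, and CAAAGTCCA as the HNF4 motif. No match overlapped another.
Vsig1, chrX:140907358-140907607, plus strand: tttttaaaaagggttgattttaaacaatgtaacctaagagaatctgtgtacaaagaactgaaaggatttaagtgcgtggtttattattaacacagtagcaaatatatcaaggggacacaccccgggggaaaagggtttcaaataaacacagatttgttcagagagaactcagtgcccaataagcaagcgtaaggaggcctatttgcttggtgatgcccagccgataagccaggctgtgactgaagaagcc
Anxa10, chr8:62123194-62123443, minus strand: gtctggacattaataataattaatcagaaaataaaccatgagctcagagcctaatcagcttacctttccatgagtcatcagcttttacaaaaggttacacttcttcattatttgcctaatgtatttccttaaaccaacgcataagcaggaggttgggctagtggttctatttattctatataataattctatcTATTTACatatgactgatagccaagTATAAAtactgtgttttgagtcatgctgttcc
Gkn1, chr6:87350916-87351165, minus strand: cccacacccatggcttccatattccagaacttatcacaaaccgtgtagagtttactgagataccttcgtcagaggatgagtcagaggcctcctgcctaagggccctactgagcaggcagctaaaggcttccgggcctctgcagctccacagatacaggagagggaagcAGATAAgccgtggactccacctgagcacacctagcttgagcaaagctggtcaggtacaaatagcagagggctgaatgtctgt
Agr2, chr12:35992675-35992924, plus strand: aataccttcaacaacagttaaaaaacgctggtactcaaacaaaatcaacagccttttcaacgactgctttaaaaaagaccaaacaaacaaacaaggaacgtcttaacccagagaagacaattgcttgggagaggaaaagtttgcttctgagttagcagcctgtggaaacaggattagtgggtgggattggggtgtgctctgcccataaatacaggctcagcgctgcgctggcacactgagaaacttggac
The Anxa10 window held 1 forkhead match, which begins 57 bases before the start, and 1 TATA box, which begins 32 bases before it. The Gkn1 window held 1 GATA match, 82 bases before the start. The Vsig1 and Agr2 windows held no match to these letters. Over 32851 promoters of the same length, 5.76% held a forkhead match, 9.99% a GATA match, 12.4% a TATA box and 0.384% an HNF4 match. These matches are descriptions of letters and not of bound sites.

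Across the 8 genes, 1 was higher in LOH libraries by edgeR's quasi-likelihood test (adjusted p under 0.05, Benjamini-Hochberg over all genes tested), against 5.21% of all genes tested and 3.55% called in the higher direction. That gene was Vsig1. No member was lower by this test, beside 1.66% of all genes tested. Of the 8, 3 had an unadjusted p under 0.05, beside 25.3% of all genes tested. In the fit with organoid line as a block there were 3, Gkn1, Anxa10 and Vsig1, all higher, against 1.47% of all genes tested and 1.22% in that direction. The median log2 fold change of the 8 was 1.93, beside 0.063 over all genes tested. Within lines 6, 23 and 34 the members' median log2 ratio was 2.81, 0.32 and 2.01. All 8 were above 0 in line 6, 4 in line 23 and 7 in line 34. The members above 0 in every line were Agr2, Anxa10, Vsig1 and Gkn1, and 22.9% of all genes tested did the same. No member was below 0 in every line, beside 21.6% of all genes, and the 4 others had lines of both signs, beside 55.5%. In 3 members every LOH library lay above every heterozygous one, as in 16.4% of all genes tested.

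**Figure D1:**
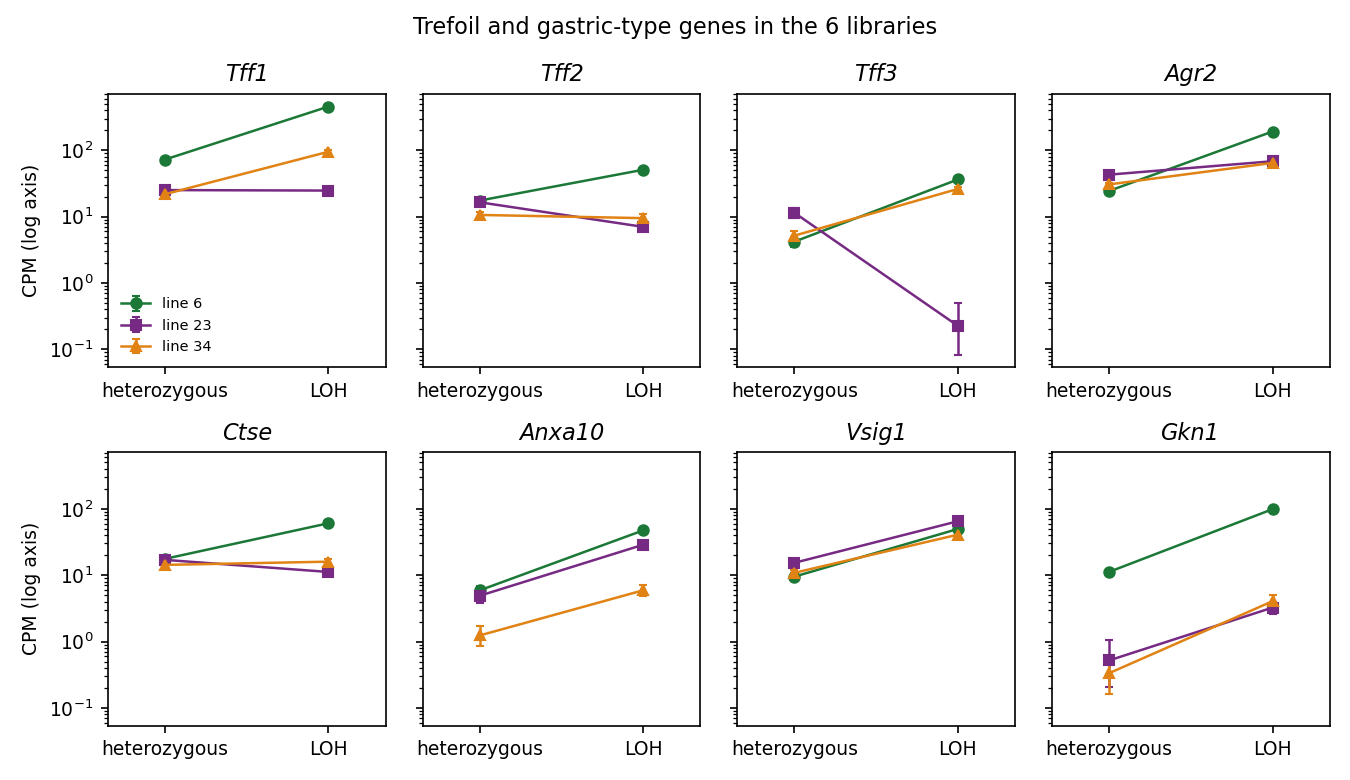
Level of each gene in the 6 libraries, as CPM on a log axis, with the libraries of an organoid line joined and exact Poisson 95% intervals that cover counting error only. Vsig1, Anxa10, Gkn1 and Agr2 slope upward in all 3 lines, while Tff3 falls from 11.4 to 0.227 CPM in line 23.

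Vsig1 (ENSMUSG00000031430.8; chromosome X, 140907608 to 140939472, plus strand, GRCm38) measured 9.51, 15.4 and 10.8 CPM in heterozygous cultures of lines 6, 23 and 34. In LOH cultures of these lines it measured 49.7, 64.9 and 40.7 CPM, from 853, 1720 and 875 counts. Every LOH library lay above every heterozygous one, and the lines rose by similar amounts, 5.22-, 4.23- and 3.76-fold. The means were 11.9 ± 3.07 and 51.8 ± 12.2 CPM (SD, n = 3 each). This was a rise of 2.13 on the log2 scale (edgeR: SE 0.28, adjusted p 0.0164), and of 2.12 with the line as a block (SE 0.25, adjusted p 0.0341). Vsig1 was the 1 member for which LOH line 6 was not the highest library. The call was lost without any 1 of the heterozygous libraries, at edgeR adjusted p-values from 0.083 to 0.107. Those fits called no gene at all, and 2272 to 2966 genes reached an unadjusted p under 0.05. Its log2 fold change stayed between 1.93 and 2.34 in the fits that left out 1 library. Of its transcripts Vsig1-201, the protein-coding one, held 66.1% to 75.3% of the gene's counts in a library, and a non-coding processed transcript held the rest.

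Anxa10 (ENSMUSG00000031635.14; chromosome 8, 62057042 to 62123150, minus strand) belongs to the calcium-binding annexins. In lines 6, 23 and 34 it measured 5.91, 4.9 and 1.24 CPM with the heterozygous genotype and 47.3, 28.7 and 5.91 CPM after LOH. The groups met at the edge, since LOH line 34 lay just above heterozygous line 6. Within each line the LOH library was 4.79- to 8.004-fold higher. A log2 fold change of 2.77 (SE 0.84) did not pass without the block (edgeR adjusted p 0.0996), and passed at 3.25 without LOH line 34 (adjusted p 0.0472). With the block it was 2.61 (SE 0.29, adjusted p 0.0341), so the gene was called where each LOH library was set against its own line. The call of the block fit was lost without line 23 or line 34, where that fit called no gene and 1650 and 1402 genes had an unadjusted p under 0.05. Counts were split among 3 annotated transcripts. Anxa10-201 held from 23.2% to 61.2% and the retained intron transcript Anxa10-203 from 15.8% to 33.7% of the gene's counts, and these shares overlapped between the genotypes.

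Gkn1 (ENSMUSG00000030050.4; chromosome 6, 87345650 to 87350942, minus strand) spanned a 295.6-fold range between its highest and lowest library, the widest of the 8 genes. Heterozygous cultures of lines 6, 23 and 34 measured 11.2, 0.519 and 0.334 CPM (336, 7 and 10 counts). Their LOH counterparts measured 98.7, 3.25 and 4.05 CPM (1695, 86 and 87 counts). Heterozygous line 6 was thus higher than the LOH libraries of lines 23 and 34, and the groups overlapped. Inside a line the LOH library was higher by 8.8-fold in line 6, 6.25-fold in line 23 and 12.1-fold in line 34. The exact Poisson 95% intervals of the lowest libraries ran from 0.209 to 1.07 CPM in heterozygous line 23 and from 0.16 to 0.614 CPM in heterozygous line 34. Without the block the log2 fold change was 3.1 (edgeR: SE 1.73, adjusted p 0.308), and with it 3.14 (SE 0.31, adjusted p 0.0318). The unblocked value turned on line 6, being -0.22 without LOH line 6 and 6.39 without heterozygous line 6, while without both it was 3.09 (edgeR adjusted p 0.0404). The call of the block fit was lost without line 23 or line 34.

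Agr2 (ENSMUSG00000020581.11; chromosome 12, 35992907 to 36004087, plus strand) measured 24.5, 43 and 30.6 CPM in heterozygous lines 6, 23 and 34. After LOH the same lines measured 191.8, 68.4 and 64.5 CPM. All LOH libraries lay above all heterozygous ones, and LOH line 6 stood far above the other 2. The ratios were 7.84-, 1.59- and 2.11-fold in lines 6, 23 and 34. Its log2 fold change of 1.73 (SE 0.48) did not pass (edgeR adjusted p 0.0809; 0.19 with the block). It passed without LOH line 6, where it was 0.99 (SE 0.25, edgeR adjusted p 0.049). The coding transcript Agr2-201 held from 99.15% to all of the counts in a library. Its paralog Agr3 had 2 counts in LOH line 23 and 0 in the other 5 libraries.

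The trefoil genes sit together on chromosome 17 (31125306 to 31165277, minus strand), in 39972 bases, in the order Tff3, Tff2, Tff1. Tff1, Tff2 and Tff3 did not pass in either fit. Tff1 (ENSMUSG00000024032.6; 31161395 to 31165277) measured 72.6, 25.2 and 21.8 CPM in heterozygous lines 6, 23 and 34, and 455.7, 24.7 and 95.1 CPM after LOH. LOH line 6 was the highest library and LOH line 23 lay level with its heterozygous partner, so the groups overlapped. Its log2 fold change was 2.26 (edgeR: SE 1.01, adjusted p 0.216; 0.215 with the block), and 0.54 without LOH line 6. Tff1 overlaps Gm15318 on the opposite strand, and that gene had 17 to 53 counts in a library. The strand setting of the counting is not given, and whether reads were shared between these 2 genes was not tested.

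Tff2 (ENSMUSG00000024028.7; 31141049 to 31144282) measured 17.5, 16.5 and 10.6 CPM in heterozygous lines 6, 23 and 34. After LOH it measured 50.9, 7.02 and 9.5 CPM. LOH line 6 lay above and the other 2 LOH libraries below every heterozygous library. A log2 fold change of 0.59 was fitted (edgeR: SE 0.73, adjusted p 0.637), which was 0.047 with the block (SE 0.57, adjusted p 0.971), and it turned to -0.89 without LOH line 6 (adjusted p 0.0982).

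Tff3 (ENSMUSG00000024029.4; 31125306 to 31129646) had the widest range of the trefoil genes, 160.4-fold between the highest and lowest library. Heterozygous lines 6, 23 and 34 measured 4.2, 11.4 and 5.17 CPM (126, 154 and 155 counts). After LOH they measured 36.3, 0.227 and 26.2 CPM (624, 6 and 562 counts). Lines 6 and 34 had more in the LOH library, by 8.64- and 5.06-fold, and line 23 kept only a remnant. The exact Poisson 95% interval in LOH line 23 was 0.083 to 0.493 CPM, and the lowest of the other 5 libraries had 4.2 CPM. The fitted log2 fold change was 1.6 (edgeR: SE 1.24, adjusted p 0.451) without and 1.15 (SE 1.98, adjusted p 0.771) with the block. Without LOH line 6 it was 0.91, and without LOH line 23 it was 2.19 (edgeR: SE 0.47, adjusted p 0.0676).

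**Figure D2:**
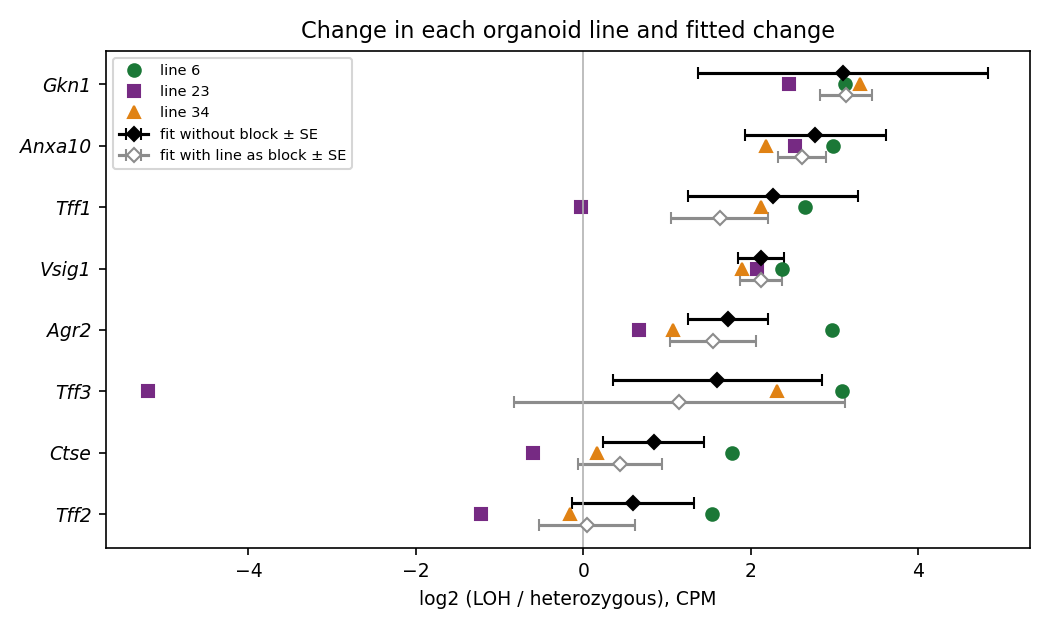
The log2 ratio of LOH over heterozygous CPM in each organoid line (coloured symbols, prior count of 2) and the fitted log2 fold change without and with the line as a block (diamonds, bars are 1 SE). Vsig1 has its 3 lines between 1.9 and 2.37, whereas Tff3 spans from -5.2 in line 23 to 3.08 in line 6.

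Ctse (ENSMUSG00000004552.16; chromosome 1, 131638306 to 131675505, plus strand) was even among heterozygous libraries, at 17.6, 17 and 14.3 CPM in lines 6, 23 and 34. After LOH these lines measured 60.5, 11.2 and 16 CPM. LOH line 6 lay above all heterozygous libraries, LOH line 23 below them and LOH line 34 within their range. Its log2 fold change was 0.84 (edgeR: SE 0.6, adjusted p 0.416), 0.44 with the block (SE 0.5, adjusted p 0.657), and -0.3 without LOH line 6. The transcript Ctse-202 held 5.75%, 1.01% and 11.4% of the gene's counts in heterozygous lines 6, 23 and 34 and was listed at 0 in all 3 LOH libraries. RSEM, which divides ambiguous reads among transcripts, gave it at most 48.8 counts, and this difference was not tested.

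LOH line 6 was the highest of the 6 libraries for 7 members, whereas it was the highest for 18.9% of all genes tested. The summed TPM of the 8 genes was 2014 in LOH line 6, 232 in LOH line 23 and 424.1 in LOH line 34, beside 434.4, 251.3 and 184.1 in heterozygous lines 6, 23 and 34. In line 23 the TPM sum was a little lower in the LOH library. By CPM, the measure for comparing libraries, Agr2, Anxa10, Vsig1 and Gkn1 were higher there. The 4 others were lower, with Tff1 nearly level. No direction of the sum between libraries is read from TPM. Tff1 was the most abundant member by TPM in 5 libraries and Agr2 in LOH line 23. In LOH line 6 Tff1 reached 1336 TPM, rank 27 among genes of the protein-coding table, and in heterozygous line 34 it had 72.4 TPM, rank 989. Gkn1 was the least abundant member in heterozygous lines 23 and 34 and in LOH line 34, at 0.33 to 2.92 TPM. The lowest member was Anxa10 in heterozygous line 6, Vsig1 in LOH line 6 and Tff3 in LOH line 23.

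In every library Tff1 gave more than the other trefoil genes together, from 52% of the summed trefoil TPM in heterozygous line 23 to 86.2% in LOH line 6. Its share was larger in the LOH library of each line, with 80.8% and 86.2% in line 6, 52% and 81.8% in line 23 and 62.7% and 74.7% in line 34, heterozygous first. The Tff2 share was smaller in each, at 14.8% and 7.24%, 25.5% and 17.5%, and 23.1% and 5.61%. For Tff3 the share moved in both directions, from 22.6% to 0.721% in line 23 and from 14.2% to 19.6% in line 34. Shares of a sum depend on each other, and these were not tested. An exact permutation test of 3 against 3 libraries cannot give a two-sided p below 0.1.

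**Figure D3:**
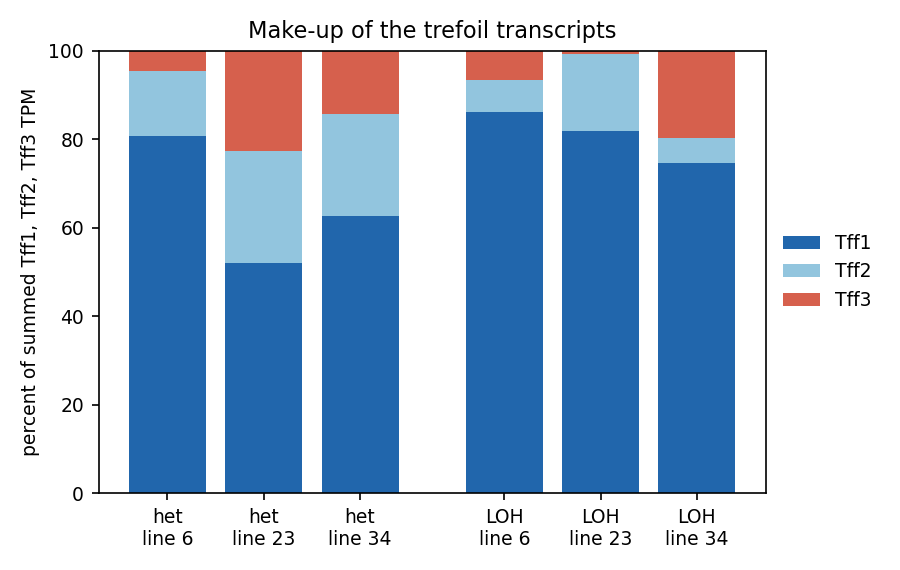
Percent of the summed Tff1, Tff2 and Tff3 TPM given by each gene, in the 3 heterozygous and 3 LOH libraries. Tff1 takes the largest part of every bar, from 52% to 86.2%, and Tff3 shrinks to 0.721% in LOH line 23.

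Genes beside the trefoil cluster were examined next, against 5.21% of all genes tested called without and 1.47% with the block. Of 21 tested genes, 10 on either side (from 29490753 to 32036349 on chromosome 17) and Gm15318 inside, 1 passed without and with the block. It was Pde9a, a cGMP phosphodiesterase, which rose by 3.42 on the log2 scale (edgeR: SE 0.32, adjusted p 0.0106; 0.0318 with the block). The neighbours had a median log2 fold change of 0.042, beside 0.063 over all genes tested. By line the neighbours' median log2 ratio was 0.27, 0.17 and -0.14 in lines 6, 23 and 34. Single ratios of neighbours ran from -1.8 to 4.01, the latter for Pde9a in line 6. Single ratios of the trefoil genes ran from -5.2 to 3.08.

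Other gastric genes were taken from lists. Beside the count of each list stand the shares of all genes tested, 3.55% called higher and 1.66% lower. With the block these shares were 1.22% and 0.248%. Beside the list medians stands the median log2 fold change of all genes tested, 0.063 without the block. Of 22 genes of gastric mucous cells 18 were tested and 2 rose, Fut2 and Psca, with a list median of 1.73. With the line as a block none of the 18 passed. Fut2, the fucosyltransferase of mucous secretions, averaged 80.5 ± 16.8 CPM in heterozygous and 226.7 ± 44.2 CPM in LOH cultures (SD over 3 lines), and rose by 1.49 on the log2 scale (edgeR: SE 0.24, adjusted p 0.0246, or 0.0703 with the block). Psca, a surface antigen of the stomach and of pancreatic cancer, rose by 2.88 (edgeR: SE 0.47, adjusted p 0.0267; 0.0721 with the block), from at most 0.816 CPM in heterozygous libraries. Of the other gastrokines, Gkn2, a partner of trefoil peptides in mucus, measured 10.7, 1.78 and 0.267 CPM in heterozygous lines 6, 23 and 34, and 78.6, 3.28 and 6.15 CPM after LOH. It was higher after LOH in each line, like Gkn1, but did not pass (edgeR adjusted p 0.303, or 0.134 with the block). Gkn3 measured 2.5, 0.074 and 0.033 CPM in heterozygous lines 6, 23 and 34 and 52.4, 10.6 and 0.093 CPM after LOH. Heterozygous lines 23 and 34 held 1 Gkn3 count each, and LOH line 34 held 2. Gkn3 did not pass either (log2 fold change 4.5, edgeR adjusted p 0.206, or 0.0584 with the block). Cldn18, the stomach claudin, went from 11.4 to 244.5 CPM within line 6 and had at most 0.668 CPM in the other 4 libraries. The mucins that trefoil peptides accompany did not pass, with log2 fold changes of 1.04 for Muc5ac, 1.85 for Muc6 and 2.72 for Muc2 (edgeR adjusted p 0.322, 0.167 and 0.0999). Of 9 trefoil partners and proposed receptors 7 were tested and 1 rose, Ackr3, with a list median of 1.85. With the block none of the 7 passed. Ackr3, a chemokine receptor proposed to bind a trefoil factor, rose by 2.45 on the log2 scale (SE 0.47, edgeR adjusted p 0.0358, or 0.114 with the block). It had 4 to 7 counts in a heterozygous library and 24 to 26 in an LOH library. In the same list Egfr had a log2 fold change of -0.12 (edgeR adjusted p 0.855), and Cxcr4 and Lingo2 failed the filter.

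Most genes of gastric glands failed the filter on low counts, and only Kcnq1 and Slc26a9 had at least 15.4 CPM in every library. Of 13 genes of chief, parietal and endocrine gland cells 5 passed the filter and none changed in either fit. Gif, Lipf and Atp4b were at 0 counts in all 6 libraries, and Pga5 reached 2 counts. The potassium channel gene Kcnq1, by contrast, lay between 15.4 and 80.8 CPM, the chloride transporter gene Slc26a9 between 31.2 and 37.5 CPM, and Atp4a, a subunit of the proton pump, between 0.652 and 2.75 CPM. The list summed to 28.4 to 38.4 TPM in heterozygous and 20.9 to 32.4 TPM in LOH libraries. Pgc, a pepsinogen also found outside chief cells, had 19.8 CPM in LOH line 23 and at most 3.26 CPM elsewhere.

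Among foregut transcription factors 17 of 20 were tested and 5 rose: Foxa1, Elf3, Klf4, Hnf4g and Spdef, with a list median of 0.52. With the block Foxa1, Sox21, Hnf4g and Elf3 passed. Foxa1, a forkhead pioneer factor of gut epithelium, measured 1.5, 0.445 and 0.768 CPM in heterozygous lines 6, 23 and 34 and 25.7, 27.8 and 15.5 CPM after LOH, without overlap. It rose by 4.61 on the log2 scale (edgeR: SE 0.49, adjusted p 0.0132). Foxa2 measured 44.8, 49 and 49.3 CPM in heterozygous lines 6, 23 and 34 and 18.3, 36.9 and 39.6 CPM after LOH. Foxa2 was thus lower after LOH in each line, but did not pass (log2 fold change -0.59, edgeR adjusted p 0.266, or 0.29 with the block). Foxa3 had a log2 fold change of 0.52 (edgeR adjusted p 0.252). Spdef, a factor of mucous cell maturation, rose by 3.47 (edgeR: SE 0.75, adjusted p 0.0468; 0.0534 with the block) and Klf4 by 1.18 (SE 0.17, adjusted p 0.0208; 0.0852 with the block). Hnf4g rose by 3.4 (SE 0.56, edgeR adjusted p 0.0267) and Elf3 by 1.69 (SE 0.2, adjusted p 0.0164). Sox2, the stomach factor of the foregut, and Barx1 were at 0 counts in all libraries, and Nkx6-3 failed the filter with at most 8 counts. Gata4 and Gata6 did not pass, with log2 fold changes of 2.13 and -0.63 (edgeR adjusted p 0.0695 and 0.475).

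In the mucus secretion list 9 of 14 genes were tested, 3 rose and 1 fell, with a median of 2.63. Ern2, the stress sensor of mucin-secreting cells, rose by 3.48 on the log2 scale (SE 0.54, edgeR adjusted p 0.0229; 0.0318 with the block). Clca1, a secreted goblet cell protein, rose by 4.9 (edgeR: SE 0.99, adjusted p 0.0399; 0.079 with the block), and Bcas1 by 3.51 (SE 0.65, adjusted p 0.0334; 0.0644 with the block). Spink4, a peptide of goblet cells, fell by 2.2 (SE 0.41, edgeR adjusted p 0.0343; 0.0341 with the block), from 25.5, 43.2 and 21.9 CPM in heterozygous lines 6, 23 and 34 to 4.89, 10 and 4.61 CPM after LOH. Agr2 belongs to the protein disulfide isomerases, of which none of 10 tested passed in either fit, with a median of 0.15. P4hb, a general isomerase of the endoplasmic reticulum, had a value of 0.26 (edgeR: SE 0.2, adjusted p 0.443).

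Relatives of the other members moved in part. Of 12 annexins, all tested, Anxa11 rose without the block (log2 fold change 1.07, edgeR: SE 0.2, adjusted p 0.0352; 0.109 with the block), and Anxa10 rose with it. The annexin median was 0.56. Of 5 tested pepsin-family proteases Bace2 rose in both fits (log2 fold change 1.82, edgeR: SE 0.29, adjusted p 0.0246; 0.0492 with the block). Among 6 tested genes of the Vsig family and related junction proteins 3 rose. These were Gpa33 (log2 fold change 4.78, edgeR: SE 0.39, adjusted p 0.00669; 0.0257 with the block), Vsig1 and Vsig10 (1.01, SE 0.21, adjusted p 0.0442; 0.106 with the block). An intestinal list had 6 higher genes among 10 tested, with a median of 1.91. These were Krt20, Muc13, Isx, Lgals4, Cdx2 and Vil1. With the block Krt20, Muc13 and Isx passed again and Alpi was added, while Lgals4, Cdx2 and Vil1 did not pass (edgeR adjusted p 0.0735, 0.0645 and 0.113). Lgals4, a gut galectin, measured 77.4, 194.1 and 139.6 CPM in heterozygous lines 6, 23 and 34, and 681.8, 461.3 and 801.1 CPM after LOH. None of 9 ductal and general epithelial genes passed without the block, and Cftr passed with it.

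**Figure D4:**
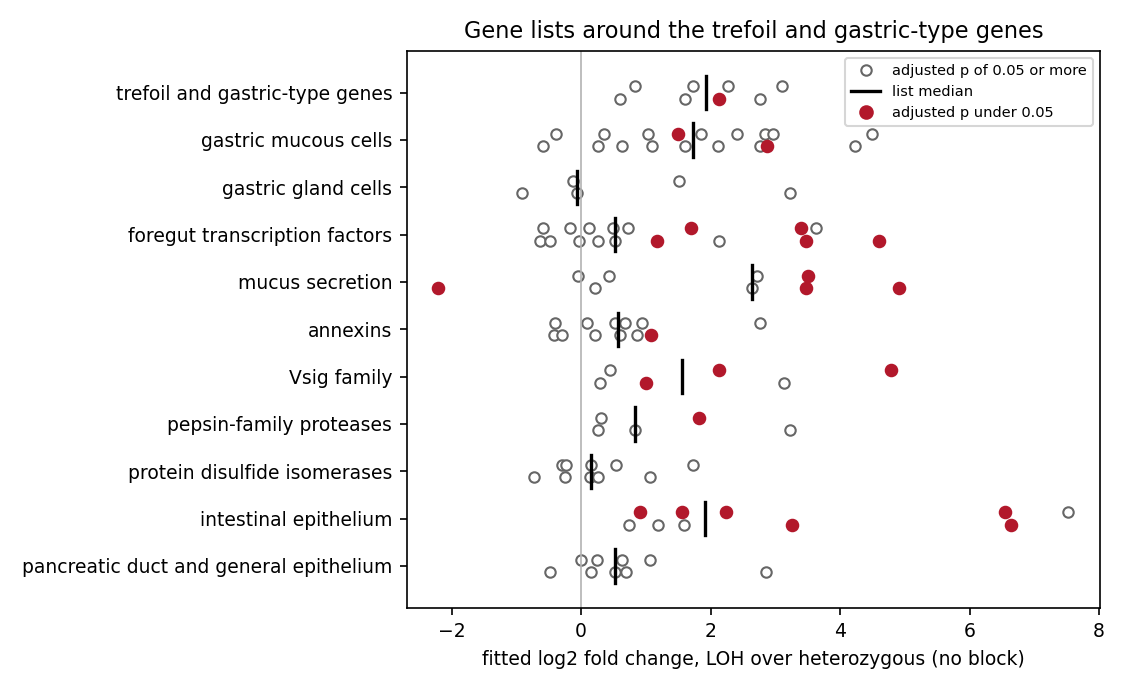
Fitted log2 fold change, LOH over heterozygous, of each tested gene in 11 lists, with filled points for an adjusted p under 0.05 and a bar at the list median. The 8 trefoil and gastric-type genes lie between 0.59 and 3.1, with Vsig1 filled, and the gastric gland list has its median at -0.07.

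The members did not share 1 profile. Likeness was measured as the root mean square difference between log2 CPM profiles over the 6 libraries, each centred on its own mean. The closest members were Tff2 and Ctse (0.282) and the farthest Tff3 and Anxa10 (2.95). Members were left out of the search for the nearest profiles. Among the other protein-coding genes tested, the 2 nearest to Tff1 were Dpcr1 (0.531) and Bcl2l15 (0.587). Those nearest to Tff2 were Sdr42e1 (0.318) and Hspa12b (0.321). For Tff3 they were Slc7a3 (0.763) and Cdkn1c (0.813), and for Gkn1 they were Gkn2 (0.675) and Dpcr1 (1.02). For Agr2 they were Ppp1r1b (0.114) and Ugt1a1 (0.19), and for Ctse they were Amt (0.212) and Stard5 (0.251). Vsig1 was nearest to Rgs11 and Rcor2 (0.201 each), and Anxa10 to AC159006.2 (0.458) and Enpp3 (0.486). The points share libraries, and nothing about function was read from these likenesses.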

How the data were processed

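Organoid RNA from 6 cultures was sequenced after preparation with a stranded total RNA kit. The submitters' processing notes list STAR 2.5.2b, RSEM 1.3.0, DESeq2 1.44.0 and the build GRCm38.p5, with no roles. Strand setting and read filters are not given in the sources used here. The deposited expected counts are the authors' estimated reads per gene or transcript. Deposited TPM are scaled for length and depth. The authors' deposited normalized signal, counts divided by a library's size factor, was used only for gene names and the protein-coding set.

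Expected counts were rounded, filtered by filterByExpr, scaled by TMM and tested two-sided with edgeR 4.0.16 in R 4.3.3. Log2 CPM used a prior count of 2. A count of 3 was worth 0.1 to 0.223 CPM, and Poisson intervals cover counting error only. P-values of the fit without a block rest on the spread among the 3 libraries of a genotype. Those of the block fit rest on how far the changes within lines differ from each other. Coordinates came from GENCODE release 21 (GRCm38), which held 53274 of 53379 identifiers.

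Titles give both libraries of a number as the same organoid line, which pairs them. As a check, deviations from group means correlated across genes at -0.3, 0.0094 and 0.29 in lines 6, 23 and 34. Heterozygous and LOH libraries of different lines gave -0.39 to 0.3, so the same-line values did not stand apart. Deviations within a genotype sum to 0 over its 3 libraries, so these correlations depend on each other. No label states a paired model, so the block was an alternative.

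The 8 genes, the lists and the tests were chosen with earlier results of these data known. Named were the 8 members, up to 6 called genes per list, and for each member the 2 nearest profiles among other protein-coding genes. Other listed genes (such as Gkn2, Cldn18, the mucins, Sox2, Gata4, Gata6, Pgc, Agr3 and P4hb) and Pde9a were named after their values were seen. Alternatives were other scalings and filters, the protein-coding table, the block, libraries or lines left out, DESeq2 1.42.0, and limma 3.58.1 on log2(TPM + 1) and log2(TPM + 0.1), keeping genes with 1 TPM in 3 libraries or all genes. The block without each line was added after seeing the data. In simulated counts over 14151 tested genes, the fit without a block recovered 61 of 67 genes changed 16-fold, 38 of 67 changed 4-fold and 4 of 66 changed 2-fold, with 11 false calls. An allele that both groups share is not reported here.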

Additional observations from a re-analysis of the deposited data

Results flagged for a closer look

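In 4 of the 8 genes the sign of the change was not the same in every organoid line, a share near the 55.5% of all genes tested that did this. With 1 culture of either genotype in a line, the disagreement was not tested. Tff3 had log2 ratios of 3.08 (line 6), -5.2 (line 23) and 2.32 (line 34), a distance of 8.29 between the highest and the lowest line. Tff2 gave 1.54, -1.22 and -0.16, a distance of 2.76. Tff1 gave 2.65, -0.02 and 2.12, a distance of 2.67, but its line 23 value is near 0, at 25.2 CPM in the heterozygous and 24.7 CPM in the LOH library, with overlapping Poisson intervals. Ctse gave 1.78, -0.6 and 0.16, a distance of 2.38. In all 4 the lowest line was line 23 and the highest line 6. Line 6 had the highest log2 ratio of the 3 lines in 39.9% of all genes tested.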

How the results depend on the processing

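The number of members called was 1 of 8 without a block and 1 under RLE or upper quartile scaling, at least 10 counts in every library (6 members tested), the protein-coding table and the 3 limma fits. It was 2 with no filter (Agr2, Vsig1) and without line 6 (Gkn1, Vsig1), 3 with DESeq2 (Agr2, Vsig1, Anxa10), and 0 without line 23 or line 34. Leaving out 1 library gave 0 to 2. With the organoid line as a replicate block it was 3, and 3, 0 and 0 when lines 6, 23 and 34 were left out of the block fit. Over all genes the count of 757 became 213 with the block, and 2321, 0 and 0 without those lines. It was 1422, 0 and 0 without lines 6, 23 and 34 and no block, and 0 to 2449 without 1 library (451 without LOH line 23). Unadjusted p-values under 0.05 numbered 1402 to 2966 in the fits with 0 calls. DESeq2 called 2266. Limma called 1911 on log2(TPM + 1), 1753 on log2(TPM + 0.1) and 241 with no filter. With limma on log2(TPM + 1) the median log2 fold change over the 11918 genes kept was -0.35, beside 0.063 over 14537 in edgeR, and -0.027 over 27095 genes with no filter. In these fits the unit, the test and the genes change together. Of the 1911 calls 280 were higher, and 46 of the 241, beside 516 of 757. Tff1, Agr2, Anxa10 and Vsig1 stayed above 0 in all 22 alternatives. Tff2 turned to -0.89 without LOH line 6, -0.74 without line 6, -0.72 with the block and without line 6, -0.31 on log2(TPM + 1) with or without the filter and -0.33 on log2(TPM + 0.1). Tff3 turned to -0.022 on log2(TPM + 1) with or without the filter, -0.37 on log2(TPM + 0.1), and -0.98 and -0.84 with the block and without lines 6 and 34. Leaving out 1 library gave -0.89 to 1.02 for Tff2, 0.91 to 2.19 for Tff3, -0.30 to 1.23 for Ctse and -0.22 to 6.39 for Gkn1. Ctse turned to -0.30 without LOH line 6, -0.23 without line 6 and -0.25 with the block and without it. Gkn1 turned to -0.22 without LOH line 6. The cause was not tested. Gkn1 and Tff3 were not tested at 10 counts in every library, and DESeq2 gave no adjusted p for Gkn1.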
